A study of Sus scrofa with 80 samples.

Results

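Genes of the fetal growth program were followed after birth in the Göttingen minipig, a small pig breed used in safety testing of drugs. The genes were IGF2BP1, IGF2BP2, IGF2BP3, LIN28A, LIN28B, HMGA1, HMGA2, AFP, GPC3 and PEG3. They were taken by name, but with earlier results of these data known. Of these 10 genes, 9 were found under their symbol among the 23722 genes measured on a custom Agilent array, and LIN28B was not analysed here.

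Total RNA of 9 tissues was hybridized to 80 one-colour arrays, which gave 72 tissue samples and 1 array of renal pelvis. Liver, kidney, spleen, bone marrow and 3 brain regions (cerebellum, hypothalamus and cerebral cortex) came from 1 male and 1 female at each of 1 week, 4 weeks, 2 months and 4 months of age and from 1 male at 2 years. Testis was taken from 1 male at each of these 5 ages, and ovary from 1 female at each of the 4 ages up to 4 months. The younger animals came from the breeder Ellegaard, on the breeder's feed, whereas the 2-year male was kept for most of its life at Roche on another feed and was killed with another pentobarbital product. Each sex and age therefore stands for 1 sample per tissue, the labels do not say which tissues share an animal, and sex cannot be told apart from the individual animals.

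In mammals, these genes are active before birth and several of them are silenced in most organs as growth slows. The IGF2BP proteins bind messenger RNAs, IGF2 among them, and affect their stability and translation. The LIN28 proteins block the maturation of let-7 microRNAs, which in turn repress HMGA2, the IGF2BP genes and the LIN28 genes themselves. HMGA1 and HMGA2 are small chromatin proteins that bend AT-rich DNA, AFP encodes the main plasma protein of the fetus, GPC3 is an X-linked cell surface proteoglycan that restrains growth, and PEG3 is a zinc finger gene expressed from the paternal copy.

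Values are log2 intensities after background correction and quantile normalization, averaged over the probes of a gene. The detection limit, the 95th percentile of the negative control spots, lay between 2.35 and 3.46 on this scale. On the linear scanner scale, the arrays had a median gene spot of 27 to 89 and a median negative control of 17 to 25, so low genes lie close to background. All arrays of 2-year tissue lie on 2 slides of their own, so the 2-year age and the slide cannot be told apart. The 8 repeat arrays of the 2-year kidney had a median SD of 0.116 per gene. Tissue labels were checked against marker genes at 1 week and 4 months. The kidney markers averaged 10.34 to 11.14 in kidney and the liver markers 8.75 to 9.33 in liver. The mean of the cerebellum markers was highest in cerebellum, at 9.72 to 10.14. Over all ages, however, PCP2 (6.19 to 7.14) and CALB1 (8.99 to 9.96) were not highest there and reached 10.12 and 13.15 in bone marrow. Among the liver markers, SERPINA1 was not raised in liver (3.18 to 4.14, against 4.48 to 5.07 in cerebellum). The hypothalamus markers did not set that tissue apart, since their mean was 6.68 to 7.14 there and 6.15 to 7.11 in the other 6 tissues. Testis germ cell markers averaged 6.75 in cerebral cortex and 5.28 in cerebellum of the 4-month male. At 1 week and in the 4-month female they averaged 3.57 to 3.85 in these regions. In hypothalamus they averaged 4.33 in the female and 4.74 in the male of 4 months, against 3.93 and 3.79 at 1 week. The 4-month female also had means of 4.64 in kidney, 4.57 in liver and 4.5 in spleen. In these 3 organs the means were 3.8 to 4.09 at 1 week and 3.71 to 3.94 in the 4-month male. The source of this signal was not tested, and these samples enter the tests. In whole tissue, fewer cells of a type and less RNA per cell cannot be told apart.

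The question was which of these genes still changed between 1 week and 4 months, the youngest and the oldest age sampled in both sexes. In the mean over the 7 tissues, IGF2BP1, AFP, HMGA1 and HMGA2 fell and none of the 9 genes rose. IGF2BP1 decreased by 1.59 ± 0.10 log2 units (standard error, adjusted p = 6.1e-05), HMGA1 by 0.51 ± 0.08 (adjusted p = 0.006) and HMGA2 by 0.50 ± 0.08 (adjusted p = 0.0054), in limma with Benjamini-Hochberg adjustment over all genes and 8 means of sex and age. Of all genes, 8.72% were called lower and 7.22% higher in this mean. AFP passed the test (adjusted p = 0.00022), but its mean holds mostly values not above background, so no size is given; it rests on liver, and without liver its adjusted p was 0.07. In the same limma test HMGA1 was not called without spleen (-0.22, adjusted p = 0.15) or without bone marrow (-0.35, adjusted p = 0.07). With 2 and 4 months set against 1 and 4 weeks, HMGA2 was still called, whereas IGF2BP1 (adjusted p = 0.057), AFP (adjusted p = 0.12) and HMGA1 (adjusted p = 0.92) were not. GPC3 had a change of 0.34 ± 0.15 and PEG3 one of -0.28 ± 0.09, with adjusted p of 0.17 and 0.062. PEG3 was called lower with an offset of 50 in the background correction (adjusted p = 0.044). It was also called without hypothalamus (adjusted p = 0.032) or without cerebral cortex (adjusted p = 0.044). Without any other tissue, or with median scaling (adjusted p = 0.075), it was not.

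Tested within each tissue, 9 of the 63 pairs of gene and tissue were called lower (14.3%) and 4 were called higher (6.35%). Over all genes, 4.52% of such pairs were lower and 4.15% higher. In 23 of the 63 pairs, the gene was not well above background on any array of either age. In liver, AFP, HMGA1 and IGF2BP1 were lower, where 3.61% of all genes were lower and 1.78% higher. In kidney, HMGA2 and IGF2BP1 were lower, against 5.56% of all genes lower and 3.28% higher. In spleen, HMGA1, HMGA2 and IGF2BP1 were lower and GPC3 and LIN28A higher, in a tissue where 15.3% of all genes were lower and 18.5% higher. In bone marrow, HMGA1 was lower and GPC3 higher, against 1.83% and 1.5% of all genes (2.96% and 1.47% with median scaling in place of quantile normalization). In cerebellum, HMGA1 was higher and no gene of the group lower, against 3.68% of all genes higher and 5.04% lower.

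No gene of the group was called in hypothalamus, where 0.0759% of all genes were lower and 0.114% higher, or in cerebral cortex, where these shares were 0.207% and 0.215%. At an unadjusted p under 0.05, 2 of the 9 genes passed in each of these tissues, against 14.6% of all genes in hypothalamus and 13.9% in cerebral cortex. The median change of the 9 genes was -0.50 in spleen, -0.48 in liver, -0.48 in bone marrow and -0.20 in kidney. It was -0.24 in hypothalamus, -0.13 in cerebral cortex and -0.1 in cerebellum, while the median of all genes lay between -0.0021 and 0.041 in the 7 tissues.

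**Figure D1:**
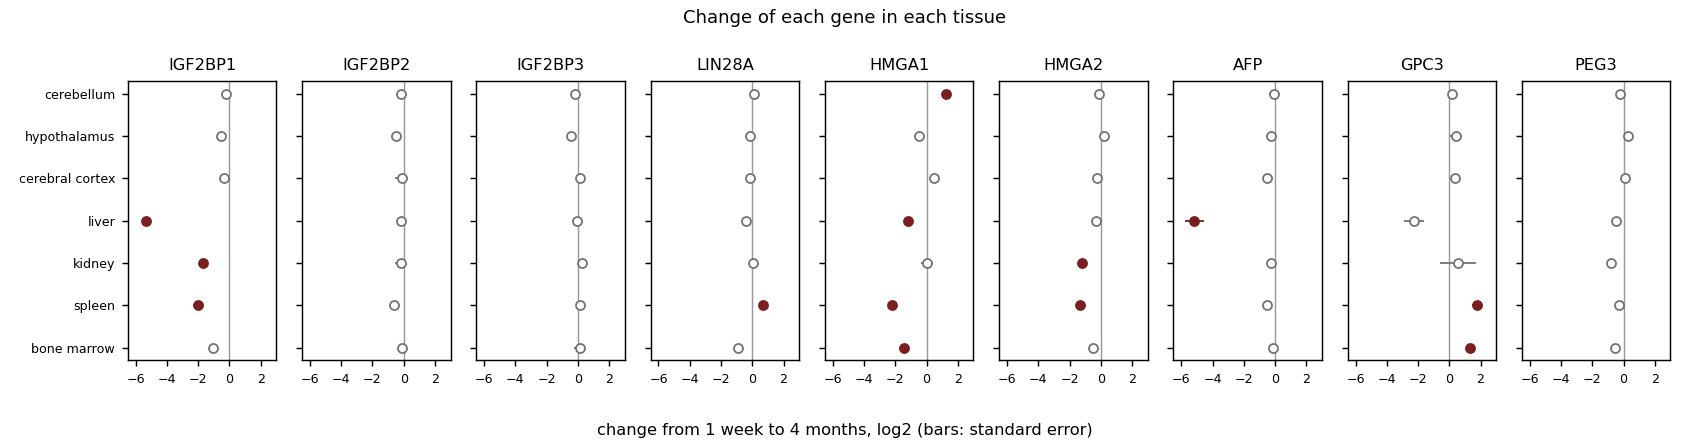
Change of the 9 genes from 1 week to 4 months (horizontal axis, log2 units) in the 7 tissues (vertical axis), with standard errors from limma; filled red points passed an adjusted p of 0.05 and open grey points did not. IGF2BP1 lies at -5.33 in liver, the point of AFP in liver stands for a change of at least 14-fold because no array of 4 months was well above background, and GPC3 lies to the right of zero in spleen and bone marrow.

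The change from 1 week to 4 months was itself compared among the 7 tissues in one fit over 56 samples. It differed for 6 of the 9 genes, namely IGF2BP1, AFP, HMGA2, HMGA1, LIN28A and GPC3, by a moderated F test in limma with adjusted p between 7.7e-12 and 0.03. Of all genes, 42.2% passed the same test. The fit treated the 56 samples as independent, although tissues of one sex and age may share an animal. Without liver, AFP (adjusted p = 0.94) and GPC3 (adjusted p = 0.61) no longer passed. PEG3 had an adjusted p of 0.063 with all 7 tissues. In the same F test it was 0.034 with slide as an added term, 0.045 with an offset of 50 and 0.19 with median scaling.

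IGF2BP1, an RNA-binding protein of fetal tissues, fell in liver, spleen and kidney. In liver it read 9.34 in the female and 8.78 in the male at 1 week, 4.96 and 4.68 at 4 weeks, 4.30 and 4.58 at 2 months, and 3.51 and 3.96 at 4 months. Most of the loss thus lay between 1 and 4 weeks, and the 2 samples of 1 week stood far above the 6 later ones. The difference from 1 week to 4 months was -5.33 ± 0.26, or 40.1-fold, with an adjusted p of 0.00012. Each of its probes showed the fall, with changes of -5.04 and -5.61.

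In spleen, IGF2BP1 went from 5.90 in the female and 5.44 in the male at 1 week to 3.51 and 3.86 at 4 months, a fall by 1.99 ± 0.31 (adjusted p = 0.002). In kidney it went from 5.06 and 5.44 to 3.81 and 3.34, a change of 3.19-fold as measured (adjusted p = 0.013). Neither kidney array was well above background at 4 months, and the 2 probes changed by -2.23 and -1.11 there. Both samples of 1 week lay above both of 4 months in either organ. Without the 1 week male or the 4 months male, the adjusted p in kidney was 0.1 and 0.062. In bone marrow the values were 5.26 and 4.84 at 1 week and 3.97 and 4.06 at 4 months, with an adjusted p of 0.086. In the 3 brain regions IGF2BP1 stayed between 3.68 and 4.65 at all ages up to 4 months.

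In the gonads, with 1 sample per age and no test, IGF2BP1 at 4 weeks was close to its level of 1 week in ovary and lower in testis. Testis read 8.80 in the 1-week male and 7.97 in the 4-week male, followed by 6.40, 6.40 and 5.83 in the males of 2 months, 4 months and 2 years. Ovary read 7.93, 7.87, 6.03 and 3.57 over the 4 ages up to 4 months. The ovary value of 4 months lay near the detection limit, whereas the testis stayed above it at every age. At 2 years IGF2BP1 was between 3.48 and 4.25 in the other 7 tissues, and differed from the male of 4 months by at most 0.59.

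**Figure D2:**
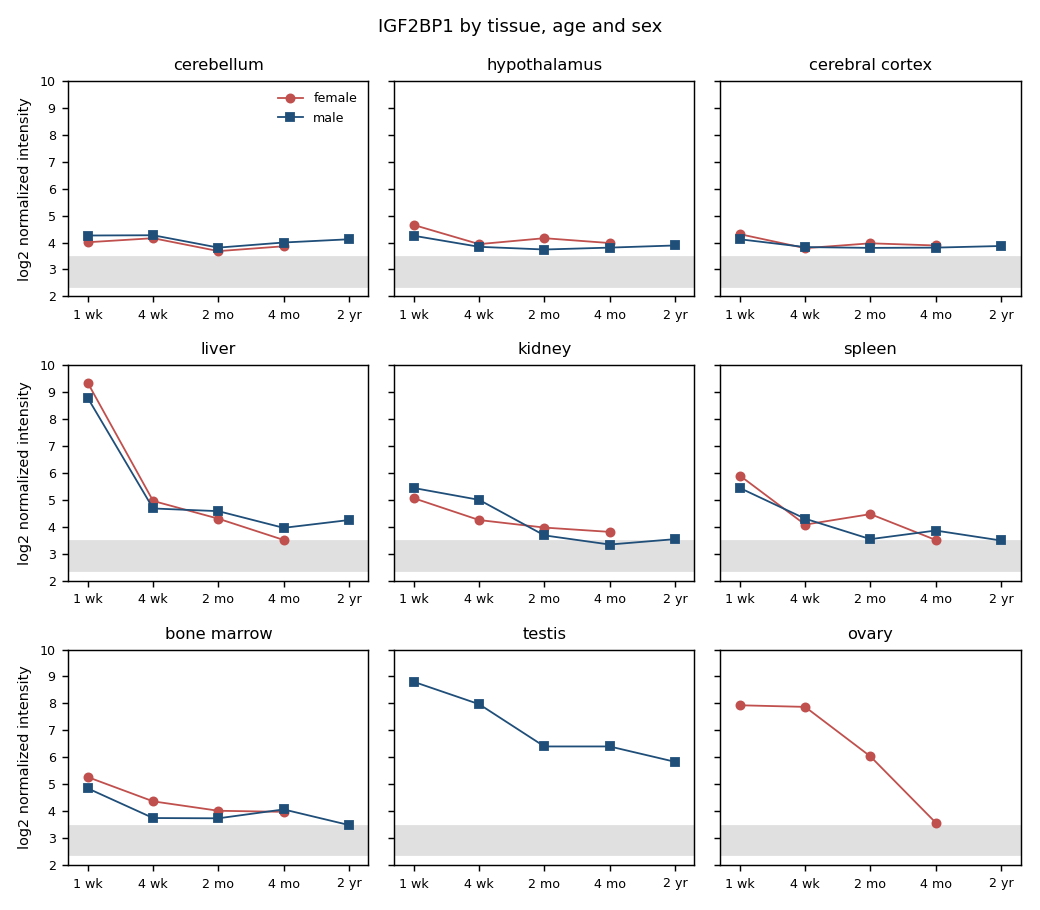
IGF2BP1 (vertical axis, log2 normalized intensity) by age (horizontal axis) in 9 tissues, with 1 point per sample, circles for females and squares for males; the grey band spans the detection limits of the arrays, 2.35 to 3.46. The liver drops from 9.34 and 8.78 to 4.96 and 4.68 between 1 and 4 weeks, whereas testis and ovary still read 7.97 and 7.87 at 4 weeks.

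Erythroid and myeloid markers averaged lower at 4 months in liver and spleen. The called genes of the group were lower too, except GPC3 and LIN28A in spleen, which were higher. All 7 erythroid markers of the list were on the array, and their mean went from 7.92 in the female and 7.91 in the male at 1 week to 5.70 and 5.76 at 4 months in liver, where 4 of 7 were lower. In spleen it went from 10.21 and 10.32 to 6.36 and 6.55, and 5 of 7 were lower. The 4 markers of bone marrow myeloid cells went from 8.35 and 9.27 to 6.54 and 6.55 in liver, with 2 of 4 lower, and from 9.51 and 10.20 to 6.23 and 6.23 in spleen, with 4 of 4 lower. Of all genes, 3.61% were lower in liver and 15.3% in spleen. In bone marrow, where none of these 11 entries was called, IGF2BP1 read 5.26 and 4.84 at 1 week. Over the 8 samples up to 4 months, 5 of the 7 erythroid markers were above the detection limit in every liver, all 7 in every spleen, and all 4 myeloid markers in both organs. The 3 hematopoietic progenitor markers did not fall in spleen, with means of 6.92 and 6.91 at 1 week and 6.92 and 7.04 at 4 months. There 1 of them was lower and 1 higher. In liver they averaged 5.74 and 5.85 at 1 week and 4.89 and 5.48 at 4 months, and none was called. The part of blood-forming cells in the results for liver and spleen was not tested. In kidney, where 5.56% of all genes were lower, 3 markers of fibroblasts and stroma averaged 9.63 and 10.24 at 1 week. At 4 months they averaged 8.52 and 8.38, with 2 of 3 lower. The 1 nephron progenitor marker measured went from 5.14 and 5.43 to 4.37 and 4.19 in kidney and was lower, and of 3 hematopoietic progenitor markers, averaging 7.88 and 7.94 at 1 week and 7.11 and 7.62 at 4 months, 2 were lower. Neither list sets such cells apart in kidney. At 1 week the nephron progenitor marker read 8.23 and 8.17 in cerebellum, and the hematopoietic progenitor markers averaged 7.35 and 7.14 in bone marrow. The part of any cell type in the results for kidney was not tested.

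IGF2BP2 and IGF2BP3, the other 2 genes of that family, were at or near background. IGF2BP2 lay between 2.15 and 4.07 over the 72 samples, and was well above background in 7 of them. Its highest values were in kidney, with a mean of 3.70 ± 0.35 (SD, n = 8), and those of bone marrow overlapped them. IGF2BP3 lay between 2.06 and 3.43 and was well above background in 3 of 72 samples. Its 2 probes were nearly unrelated over the samples (r = 0.08), so no order of tissues can be read from it. Neither gene was called in any tissue.

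LIN28A, which holds back let-7 microRNAs, differed by tissue. In the mean of its 2 probes, the 3 brain regions were highest among the 7 tissues. In cerebellum its 8 samples up to 4 months lay between 6.47 and 6.93, with 6.69 and 6.72 at 1 week and 6.93 and 6.66 at 4 months. Cerebral cortex followed at 5.82 ± 0.18 (SD, n = 8) and hypothalamus at 5.70 ± 0.16. At 2 years the male read 5.98 in cerebellum, 5.20 in cerebral cortex and 5.38 in hypothalamus, under every younger sample of each region. Up to 4 months, the range of cerebellum lay above that of cerebral cortex, cortex and hypothalamus overlapped, and hypothalamus lay above spleen (4.80 ± 0.31). Kidney and liver were lowest, at 3.63 ± 0.27 and 3.48 ± 0.29.

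The 2 probes of LIN28A had very different brightness and a correlation of 0.51 over the samples. Both were highest in cerebellum among these 7 tissues, with means of 4.37 for the first probe and 8.98 for the second. The first probe read 3.99 in cerebral cortex, 3.93 in bone marrow, 3.84 in hypothalamus and 3.67 in spleen. The second read 7.66 in cerebral cortex, 7.56 in hypothalamus, 5.94 in spleen and 4.84 in bone marrow. The distance of cortex and hypothalamus from the other tissues is thus that of the second probe. In spleen LIN28A was called higher, from 4.27 and 4.61 at 1 week to 5.12 and 5.12 at 4 months (0.68 ± 0.20, adjusted p = 0.036). There the probes went opposite ways, with changes of -0.95 and 2.31, so the direction of LIN28A in spleen is that of 1 probe. Its adjusted p was 0.17 without the 1 week female and 0.12 without either sample of 4 months. In testis LIN28A read 6.43, 5.73, 4.53, 4.18 and 4.02 from 1 week to 2 years.

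HMGA1, the more widely expressed of the chromatin proteins, moved in different directions by organ. In spleen it went from 9.16 in the female and 9.58 in the male at 1 week to 7.04 and 7.23 at 4 months (-2.24 ± 0.20, adjusted p = 0.00015). In bone marrow it went from 8.81 and 8.49 to 7.40 and 6.96 (-1.47 ± 0.27, adjusted p = 0.029). In liver it went from 6.55 and 6.63 to 5.75 and 5.05 (-1.19 ± 0.24, adjusted p = 0.033).

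The cerebellum ran the other way, from 6.82 and 6.43 at 1 week to 7.98 and 7.75 at 4 months (1.24 ± 0.26, adjusted p = 0.025). In each of these 4 tissues the 2 ages did not overlap, and both probes gave the same direction. Within cerebellum HMGA1 was higher at each age up to 4 months than at the age before in both sexes and read 6.97 in the 2-year male, while the 15 proliferation entries averaged 6.11 at 1 week and 5.07 at 4 months. In liver, the adjusted p of HMGA1 was above 0.05 without the 1 week male (-1.16), the 1 week female (-1.23) or the 4 months male (-0.84), and in cerebellum without the 1 week male (1.05) or without the male (1.36) or the female (1.13) of 4 months. In bone marrow it was 0.068 to 0.22 whichever of the 4 samples was left out. With slide in one fit over all tissues, the change was -0.57 in liver (adjusted p = 0.23) and 0.81 in cerebellum (adjusted p = 0.12), and the adjusted p was 0.052 in liver with the deposited log2 values and 0.052 in cerebellum with an offset of 50.

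The course of HMGA1 was not steady between these ages. Its mean over 7 tissues was 7.41 in the female and 7.44 in the male at 1 week, 6.88 and 6.85 at 4 weeks, 7.47 and 7.44 at 2 months, and 6.81 and 7.01 at 4 months. The 2-month samples of both sexes were thus as high as those of 1 week. In kidney, values of 5.98 and 5.97 at 1 week stood beside 7.21 and 7.01 at 2 months and 5.29 and 6.73 at 4 months. With 2 and 4 months set against 1 and 4 weeks, HMGA1 was not called in any of the 4 tissues.

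At 2 years HMGA1 was lower still in the blood-forming organs, at 4.73 in bone marrow and 5.83 in spleen, against 6.96 and 7.23 in the male of 4 months. The erythroid markers of bone marrow averaged 5.06 at 2 years and 9.98 in the male of 4 months, and the myeloid markers 6.79 and 11.77. In spleen these markers were not lower at 2 years, with erythroid means of 7.36 and 6.55 and myeloid means of 6.55 and 6.23 at the same 2 ages. The part of these cells was not tested. Testis held HMGA1 between 6.91 and 7.36 at all 5 ages.

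**Figure D3:**
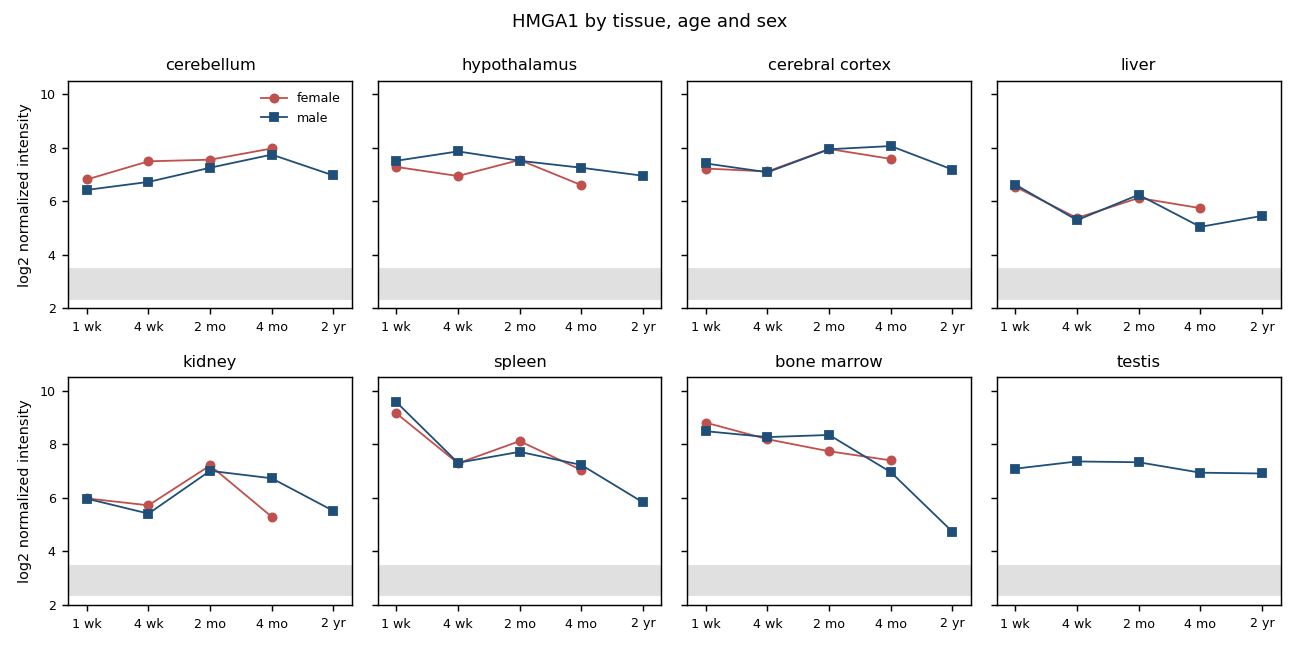
HMGA1 (vertical axis, log2 normalized intensity) by age (horizontal axis) in 8 tissues, with 1 point per sample, circles for females and squares for males, and the detection limits of the arrays as a grey band. Cerebellum rises to 7.98 and 7.75 at 4 months, spleen and bone marrow fall, and several tissues are lower at 4 weeks than at 2 months.

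HMGA2, the embryonic member of the pair and a let-7 target, was low in most organs. In spleen it went from 4.39 and 4.25 at 1 week to 2.99 and 3.02 at 4 months, and in kidney from 4.56 and 4.24 to 3.06 and 3.37. No array of 4 months was well above background in either organ. The change is at least 2.38-fold in spleen (adjusted p = 0.00039). In kidney it was 2.27-fold as measured (adjusted p = 0.011), and -0.96 log2 units with the median of probes. The 1-week samples stood above all 6 later samples in both organs. Without the 1 week female, the adjusted p in kidney was 0.079. In bone marrow, 7 of the 8 arrays up to 4 months were well above background, with 4.37 and 4.14 at 1 week and 3.90 and 3.65 at 4 months (adjusted p = 0.25).

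The probes of HMGA2 disagreed, and which of them measure it was not tested; 4 probes to 2 transcripts enter the mean. The 2 probes of the first transcript followed each other (r = 0.92) and changed by -1.83 and -3.22 in spleen and by -1.50 and -2.06 in kidney. The 2 probes of the other transcript followed neither them nor each other, with r of at most 0.15 to any probe, and changed by -0.19 and -0.03 in spleen and by -0.98 and -0.20 in kidney. In the gonads, without replicates, the mean of the 4 probes was 4.45 to 4.92 in testis at all 5 ages and 4.24 to 4.79 in ovary. The 2 probes of the first transcript read 5.28 and 7.08 at 1 week and 4.89 and 6.67 at 4 months in testis. In ovary they read 4.33 and 7.73, then 3.7 and 6.22. Those of the other transcript read 3.81 and 3.49, then 3.32 and 3.04 in testis. In ovary these read 4.02 and 3.09, then 3.92 and 3.12.

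AFP, the fetal counterpart of albumin, was seen in the liver of 1-week animals and nowhere else under its symbol. The liver read 8.56 in the female and 6.44 in the male at 1 week, 2.51 and 2.19 at 4 weeks, and 2.62 and 2.06 at 4 months. Both values of 1 week were far above the detection limit, and all others among the 72 samples lay under it. Since no array of 4 months was well above background, the change in liver is at least 14-fold (adjusted p = 0.0036 for a difference of -5.16 ± 0.62). Both probes of AFP were lower. With an offset of 50 in the background correction, the difference was -2.13 (adjusted p = 0.069), and with 2 and 4 months set against 1 and 4 weeks it was -2.67 (adjusted p = 0.29).

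The array also holds an entry for the porcine RefSeq transcript of AFP, NM_214317, which the rule by symbol did not take and which was added after its values were seen. In liver its values were 15.66 and 13.41 at 1 week, 6.67 and 5.47 at 4 weeks, 5.33 and 5.18 at 2 months, 4.67 and 6.24 at 4 months, and 6.79 in the 2-year male. This was a fall by 9.08 ± 0.77, or 542-fold (adjusted p = 0.00083), and all later liver samples remained above the detection limit. In kidney the entry read 7.88 and 8.41 at 1 week, 6.66 and 6.55 at 4 weeks, 3.56 and 4.56 at 2 months and 4.14 and 5.76 at 4 months, a fall by 3.20 ± 0.52 (adjusted p = 0.0096). The symbol entry stayed between 1.81 and 2.67 in the same kidneys. Of the 8 entries of albumin family and liver plasma protein genes, none was called in liver, and their median change there was -0.09.

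**Figure D4:**
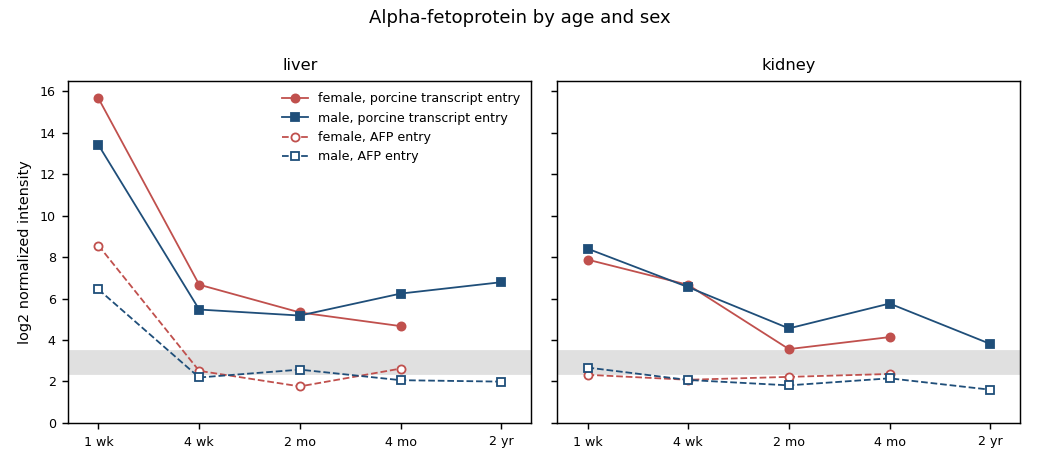
Alpha-fetoprotein (vertical axis, log2 normalized intensity) by age (horizontal axis) in liver and kidney, with 1 point per sample; filled symbols and solid lines show the porcine transcript entry, open symbols and dashed lines the entry under the symbol AFP, and the grey band the detection limits. Both entries drop in liver between 1 and 4 weeks, and only the porcine entry is above the band in kidney.

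GPC3, the growth-restraining proteoglycan, was the one gene of the group that was called higher in more than 1 tissue. In spleen it went from 4.81 in the female and 5.92 in the male at 1 week to 6.88 and 7.43 at 4 months (1.79 ± 0.35, adjusted p = 0.0059). In bone marrow it went from 6.01 and 5.97 to 7.31 and 7.33 (1.33 ± 0.23, adjusted p = 0.023). Both probes rose in each organ, and the ages did not overlap. In bone marrow the adjusted p was 0.093 to 0.16 whichever of the 4 samples was left out, with changes of 1.31 to 1.35, and in one fit over all tissues it was 0.22. In spleen the call was lost with slide in that fit (1.90, adjusted p = 0.089) and with 2 and 4 months set against 1 and 4 weeks (1.00, adjusted p = 0.19). Of the 3 stroma markers, 1 was higher in spleen, where 18.5% of all genes were, and none was called in bone marrow.

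In liver, where GPC3 was highest, the values were 10.53 and 10.61 at 1 week, 9.80 and 9.65 at 4 weeks, 9.34 and 8.15 at 2 months, and 9.34 and 7.30 at 4 months. The sexes parted after 4 weeks, and the difference of -2.25 ± 0.62 from 1 week to 4 months had an adjusted p of 0.085. In kidney the sexes parted the other way, with 7.86 and 7.96 at 1 week, 7.28 and 7.32 at 4 weeks, 7.79 in the female and 10.22 in the male at 2 months, and 6.52 and 10.42 at 4 months. The 2-year male read 9.33 in kidney. In liver it read 8.85, above the 7.30 of the male of 4 months.

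The male minus the female was 2.43 at 2 months and 3.91 at 4 months in kidney, and -1.19 and -2.04 in liver. The kidney markers averaged 10.34 in the female and 11.14 in the male kidney of 4 months, and the liver markers 9.33 and 8.83 in the livers. Each of these values is 1 animal, and no test of sex was made within an organ. In the mean over the 7 tissues, no gene of the group differed between males and females in limma at an adjusted or an unadjusted p of 0.05, where 0.0211% and 4.13% of all genes passed. GPC3 had the largest difference, with a male excess of 0.19 ± 0.09 (adjusted p = 1 in limma).

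The gonads differed in GPC3 as well. Testis read 6.79, 5.24, 4.24, 4.12 and 3.77 in order of age, while ovary read 7.03, 7.80, 8.74 and 6.53. These are single samples without a test.

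**Figure D5:**
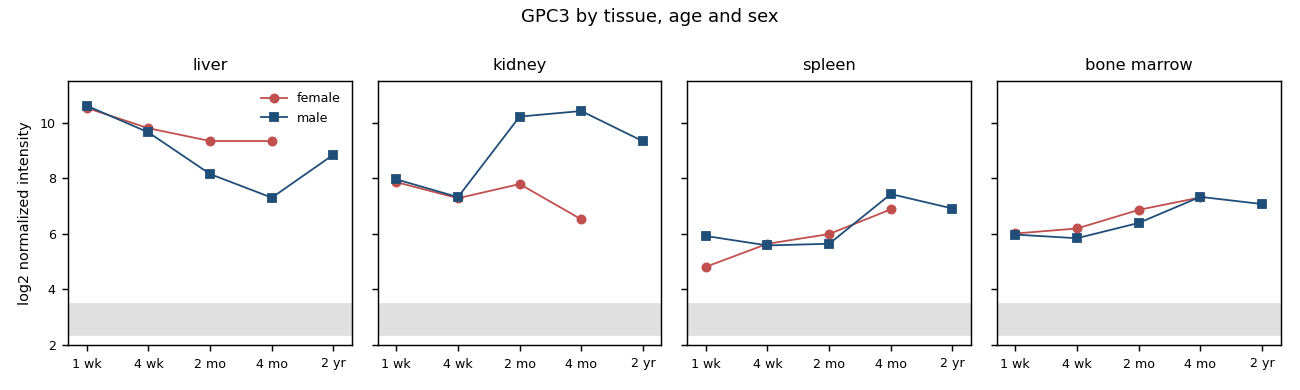
GPC3 (vertical axis, log2 normalized intensity) by age (horizontal axis) in liver, kidney, spleen and bone marrow, with 1 point per sample, circles for females and squares for males, and the detection limits as a grey band. The sexes part at 2 and 4 months in kidney (10.22 and 10.42 in males, 7.79 and 6.52 in females) and in liver, and both sexes rise in spleen and bone marrow.

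PEG3, an imprinted gene of brain and endocrine tissues, stayed high where it was high. The hypothalamus held 11.89 ± 0.32 (SD, n = 8), cerebral cortex 11.32 ± 0.12, cerebellum 11.08 ± 0.17 and kidney 10.81 ± 0.38. Neighbours among these 4 overlapped, while kidney lay above liver (8.41 ± 0.32), and spleen and bone marrow were lowest. The largest change among the 7 tissues was in kidney, from 11.31 and 11.20 at 1 week to 10.87 and 10.08 at 4 months (-0.78 ± 0.25, adjusted p = 0.099). PEG3 was called in no tissue. In testis it read 9.67, 9.37, 7.99, 7.80 and 7.43 in order of age, and in ovary 9.83, 10.46, 9.57 and 8.47.

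By tissue, over the 8 samples up to 4 months, the ranges of neighbouring tissues overlapped throughout for IGF2BP1, IGF2BP2, IGF2BP3, HMGA1, HMGA2, AFP and GPC3. HMGA1 was highest in bone marrow (8.03 ± 0.61) and spleen (7.93 ± 0.96) and lowest in liver (5.88 ± 0.60). GPC3 was highest in liver (9.34 ± 1.13) and kidney (8.17 ± 1.41) and lowest in cerebellum (4.89 ± 0.10).

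The genes whose pattern over the 72 samples was most like that of each member were read from Pearson correlations, which share arrays and tissues and carry no test. PEG3 went with DIRAS3, BEX2 and ITGB8 (r = 0.95 each). GPC3 went with MGMT (r = 0.90), LLGL2 and UGT1A7 (r = 0.87 each), and LIN28A with SLC9A5, RPP25 and KCNJ14 (r = 0.89 each). HMGA2 went with C11orf82, MSH6 and CCDC34 (r = 0.85 to 0.87), and HMGA1 with CBX5, CCNE1 and CTPS (r = 0.77 to 0.79). The closest genes were less close for IGF2BP2 (RBBP8, HOXA5 and BICC1, r = 0.76), AFP (OR2T5, LIPK and SOCS2, r = 0.66 to 0.78), IGF2BP1 (DAZ4, MAGEB10 and VGLL1, r = 0.65 to 0.68) and IGF2BP3 (RNF8, DGKK and ATP6V1G1, r = 0.49 to 0.52).

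Genes of the same pathways were counted in the same fit. Of 22 entries for 18 imprinted growth genes, 13 were lower in liver (59.1%, against 3.61% of all genes), 7 in bone marrow (31.8% against 1.83%), 6 in kidney (27.3% against 5.56%) and 3 in cerebellum (13.6% against 5.04%). In spleen 3 were lower, where their 13.6% was no more than the 15.3% of all genes, and 1 was higher, and none was called in hypothalamus or cerebral cortex. Their median change in liver was -1.19. MEG3, a maternally expressed RNA, fell from 9.31 to 4.73 in liver and from 10.54 to 7.30 in bone marrow. PEG10, a paternally expressed gene of placenta, fell from 9.72 to 5.71 in liver in the entry with the largest change, and was lower there in all 3 of its entries. NNAT and MAGEL2 fell by 2.49 and 2.47 in kidney.

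In the IGF axis of 13 entries, 4 of 91 pairs of entry and tissue were lower (4.4%) and 5 higher (5.49%), near the shares of 4.52% and 4.15% over all genes. IGF2, the fetal growth factor whose RNA the IGF2BP proteins bind, fell from 13.62 to 11.24 in liver (-2.38 ± 0.41, adjusted p = 0.018) and from 12.52 to 10.15 in kidney (-2.37 ± 0.56, adjusted p = 0.04). IGFBP2, a binding protein of the IGFs, rose by 1.72 in liver and fell by 1.87 in kidney. Of 15 entries of the LIN28 and let-7 pathway, 8 of 105 pairs were lower (7.62%) and 4 higher (3.81%), against the same 4.52% and 4.15%, with MYCN lower in cerebellum (-1.77), kidney (-2.33) and bone marrow (-1.07).

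Among 6 entries of HMG box and HMGN proteins, 13 of 42 pairs were lower (31%) and 0 higher, where 4.52% of the pairs of all genes were lower and 4.15% higher. HMGB3 went from 10.55 to 6.19 in spleen and from 8.66 to 6.45 in cerebellum, where HMGA1 rose. Among 9 entries of glypicans and their ligands, 7 of 63 pairs were lower (11.1%) and 3 higher (4.76%). GPC2, a glypican of the developing nervous system, fell by 2.44 in cerebellum, 1.70 in spleen and 1.50 in kidney, and GPC6 rose by 1.34 in cerebellum. Among 14 entries of a further list of fetal and progenitor genes, 14 of 98 pairs were lower (14.3%) and 2 higher (2.04%). That list shares genes with those above, IGF2 and MYCN among them, so these counts are not separate. In it, EZH2 fell by 3.01 in spleen, 2.81 in liver and 2.63 in kidney.

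Proliferation genes fell most widely, with 51 of 105 pairs lower (48.6%) and 0 higher, against 4.52% and 4.15% over all genes. Their mean over 15 entries went from 7.49 at 1 week to 5.22 at 4 months in liver, from 7.22 to 5.15 in kidney, from 9.27 to 6.65 in spleen and from 9.08 to 8.51 in bone marrow. TOP2A, a DNA topoisomerase of dividing cells, fell by 4.68 in liver and by 4.25 in kidney. In liver 12 of the 15 entries were lower (against 3.61% of all genes), in kidney 12 (against 5.56%) and in spleen 14 (against 15.3%). These falls stood beside those of IGF2BP1, AFP and HMGA1 in liver, IGF2BP1 and HMGA2 in kidney and IGF2BP1, HMGA1 and HMGA2 in spleen. The part of the proliferation genes in those results was not tested.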

How the data were processed

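The authors hybridized Cy3-labelled cRNA to custom Agilent arrays and deposited the scanner output of each array (Agilent Feature Extraction 11.5.1.1, per the labels). The raw median intensity of each spot, deposited without normalization between arrays, was used. The deposited table of processed log2 values of the series served as an alternative; it was matched to the arrays by spot number, all its columns have a median of 4.566, and the study's methods name robust multi-array analysis (RMA: background correction, quantile normalization, log2) for its probe intensities. That table has 49280 probe values per array, not gene summaries, and whether it is that output is not stated. The deposited processed intensity was used in another alternative. The flags well above background are the scanner software's.

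Flagged spots were left out (10 to 590 per array). Background was corrected with the normexp method of limma 3.58.1 under R 4.3.3 (offset 0), followed by quantile normalization over gene and negative control spots and log2. The spots of a probe were averaged first and the probes of a gene next, and 14 of 23736 genes, which lacked a value on some array, were dropped. The 8 repeat arrays of the 2-year kidney were averaged to 1 sample. The renal pelvis array entered no comparison.

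Each of 7 tissues was fitted in limma with 8 samples and 4 ages, without a block. The mean over tissues used 8 means of sex and age, and the difference among tissues used 56 samples without a term for the animal. P-values were adjusted by Benjamini-Hochberg over 23722 genes, with 0.05 as the threshold. The scripts were tested on simulated data. The samples of an age differ in sex and animal, and p-values measure the spread between these samples, which may in part be technical. A gene not well above background on any array of a group has only a bound, set by the lowest signal well above background on each array. Where the values of the group lay above that signal, the bound equals the measured fold, which is then given as measured. Levels of different genes are not compared.

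The members and lists were chosen with earlier results of these data known. The genes named are the members, the 3 genes closest to each, up to 2 lower and 2 higher genes per list and tissue, and markers; not all are printed. Genes have the symbols of the array files or, for 3019 of 10818 accessions, those of the RefSeq table of Sscrofa11.1. The probes of IGF2BP2, of AFP and of the porcine transcript entry of AFP belong to a class named Xhyb, whose meaning is not given in the sources used here. Whether these probes also bind other transcripts was not tested. Plots were made with matplotlib 3.10.9.

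Alternatives covered the signal column, the offset, the scaling, a filter on low values, the median of probes, single probes, sex as a replicate block, grouped ages, a fit over all tissues with and without slide, the moderation of the variance, a fold threshold and leaving out samples or tissues.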

Additional observations from a re-analysis of the deposited data

Results flagged for a closer look

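The change from 1 week to 4 months differed among the 7 tissues for 6 genes. The adjusted p of the moderated F test in limma was 7.7e-12 for IGF2BP1, 1.1e-07 for AFP, 1.4e-06 for HMGA1, 2.1e-06 for HMGA2, 0.0046 for LIN28A and 0.03 for GPC3. Slide as an added term moved that of GPC3 to 0.15. Without spleen it was 0.11 for LIN28A and 0.11 for GPC3, and without bone marrow it was 0.053 for GPC3.

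The renal pelvis of the 2-year male, a tissue outside the comparisons, had 7 of the 9 genes above the detection limit of 2.84 on its 1 array. GPC3 read 6.62 there, against 9.28 to 9.37 on the 8 repeat arrays of the kidney. PEG3 read 12.05, against 9.98 to 10.03. LIN28A read 3.87, against 3.01 to 3.50, and HMGA1 lay within the range of the kidney repeats at 5.56. The difference was not tested, since the renal pelvis has 1 array.

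The porcine AFP transcript entry, which the choice by symbol left out, had a mean of 14.54 in liver at 1 week, 14.54 being the mean of 1 female and 1 male.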

How the results depend on the processing

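The counts of 9 lower and 4 higher pairs of gene and tissue depended on the design more than on the scaling. With 2 and 4 months set against 1 and 4 weeks, 1 pair was lower and 1 higher, and in the mean over tissues 2 genes were lower in place of 4, HMGA2, which is among the 4, and PEG3, which is not (-0.27, adjusted p = 0.023). One fit over 56 samples gave 14 lower pairs, and 1 higher pair once slide was added. Leaving out 1 of the 4 samples of 1 week or 4 months gave 6 to 10 lower and 1 to 2 higher pairs; in the mean over tissues it gave 4 lower genes and 0 to 1 higher, the latter being GPC3 without the 4 months female (0.58, adjusted p = 0.041). Sex as a replicate block gave 11 lower and 4 higher pairs and 4 lower genes in the mean, and the sexes deviated together between ages by a mean correlation of -0.039 to 0.13 by tissue. The rise of LIN28A in spleen reversed to -0.95 in 1 of its probes. The causes were not tested. In the processed signal scaled to the 75th percentile, the median of all genes moved by 0.23 in liver and 0.21 in bone marrow, and by 0.16 in liver with median scaling. IGF2BP1 in liver had a change of -5.81 to -2.85 over 15 alternatives and was lost only with grouped ages. Of the values of the 9 genes in 56 samples, 356 lay above the detection limit, and 323 above the 99th percentile of the negative controls.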
